A study of Mus musculus with 8 samples.

Results

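Acute phase protein genes were followed by RNA-Seq in mouse articular chondrocytes in primary culture, with and without IL-1β. They were the serum amyloid A genes Saa1, Saa2 and Saa3, the lipocalin Lcn2, the plasma proteins Hp, Orm1 and Cp, and the pentraxin Ptx3. These 8 genes, of 54658 gene symbols in the count table, were taken by name. They had been selected on their counts in these same samples, in IL-1β against vehicle, so their differences between the groups are given as a description without a test. Of the 8, 7 were among the 14404 genes with a CPM (counts scaled to a common library size with TMM factors) above 1 in at least 4 of the 8 samples, and Orm1 was not. Saa1 and Saa2 met that filter only through the IL-1β-treated samples, and Saa3 was above 1 CPM in 2 of the 4 vehicle samples.

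Chondrocytes came from femoral head cartilage of 3-week-old wild-type mice, digested with collagenase, and were cultured in high-glucose DMEM with serum. The groups were 4 samples exposed to IL-1β at 1 ng/mL for 24 h and 4 samples given vehicle for the same time. IL-1β is a proinflammatory cytokine that activates NF-κB signaling. The labels do not say whether the samples of a group came from separate animals or cultures, so the spread between them may be technical, and in bulk RNA fewer cells of a type cannot be told apart from less RNA per cell.

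The acute phase response is the change in plasma proteins that follows inflammation, and the liver is its best known source. IL-1 type cytokines act through NF-κB, and IL-6 type cytokines act through STAT3, with C/EBP transcription factors taking part in both. Serum amyloid A proteins bind lipids and attract leukocytes, and many of the other acute phase proteins bind metals, heme proteins or microbial products.

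The total per sample was 10992355 to 17456063 counts. At these totals 3 counts, used here as the limit of detection, were 0.173 to 0.270 CPM. The TMM factors lay between 0.984 and 1.01, and all genes tested had a median log2 fold change of 0.00. A single gene, Gm26917, took 13.2% to 14.6% of the counts of each sample. All 12 chondrocyte markers were detected, and 11 of them were called lower after IL-1β, with a summed level of 3837 to 4216 CPM in treated and 15076 to 15673 CPM in vehicle samples. Of 14404 genes, 2.86% were called higher (log2 fold change above 1 and adjusted p under 0.05 by edgeR's quasi-likelihood test with Benjamini-Hochberg adjustment) and 2.35% were called lower.

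The serum amyloid A genes are shown first by the sequence before their starts, since the 3 genes lie in 1 cluster on mouse chromosome 7 and share bases. Each run holds bases -250 to -51 before the start in RefSeq (GRCm38.p6), read 5′ to 3′ in the direction of the gene. Capitals mark the match to TTGCNNAA, the core letters of a C/EBP site, on either strand. Saa1 was read from the minus strand at chr7:46743031-46743230, Saa2 from the plus strand at chr7:46751583-46751782, and Saa3 from the minus strand at chr7:46715727-46715926.
Saa1: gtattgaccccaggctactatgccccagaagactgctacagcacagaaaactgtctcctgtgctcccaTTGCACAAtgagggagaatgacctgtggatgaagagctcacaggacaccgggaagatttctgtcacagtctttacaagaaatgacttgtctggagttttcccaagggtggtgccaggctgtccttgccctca
Saa2: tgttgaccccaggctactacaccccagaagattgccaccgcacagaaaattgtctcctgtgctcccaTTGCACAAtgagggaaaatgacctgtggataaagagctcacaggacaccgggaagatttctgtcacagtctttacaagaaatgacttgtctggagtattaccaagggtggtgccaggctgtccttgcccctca
Saa3: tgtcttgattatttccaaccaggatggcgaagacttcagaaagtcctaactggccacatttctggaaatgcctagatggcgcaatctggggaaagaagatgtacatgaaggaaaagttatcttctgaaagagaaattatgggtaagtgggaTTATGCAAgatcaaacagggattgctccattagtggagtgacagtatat
Over the 250 bases before their starts, Saa1 and Saa2 were identical at 238 of 251 aligned columns (94.8%). The same comparison gave 48.5% for Saa1 and Saa3 and 47.8% for Saa2 and Saa3.

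The same letters are shown for the other members with an entry in the table of promoters, in shorter windows around the match. The Lcn2 window was chr2:32387937-32387966 on the minus strand, the Ptx3 window was chr3:66219804-66219863 on the plus strand, and the Cp window was chr3:19957168-19957197 on the plus strand, before the downstream of the 2 starts listed for Cp. The Lcn2 and Cp windows also lie within exons of longer transcripts in GENCODE vM21, and were therefore kept to 30 bases.
Lcn2: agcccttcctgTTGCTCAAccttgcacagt
Ptx3: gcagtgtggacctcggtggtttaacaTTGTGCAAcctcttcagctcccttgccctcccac
Cp: attagttactcTTTTGCAAcattaaattgt
The match lay at bases -182 to -175 in Saa1, -183 to -176 in Saa2, -99 to -92 in Saa3, -216 to -209 in Lcn2, -57 to -50 in Ptx3 and -70 to -63 in Cp. It was read on the forward strand in Saa1, Saa2 and Lcn2 and on the reverse strand in Saa3, Ptx3 and Cp. The 6 members with an entry had 7 windows of 300 bases, from -250 to 50, since Cp had a pair of starts. TTGCNNAA was found in 6 of the 7 windows, 1 for each of the 6 genes, against 10.8% of 32851 promoters in the table. The matches of Saa1 and Saa2 are not independent, since their upstream bases are nearly identical. The NF-κB consensus was searched as GGGRNWYYCC, where R is A or G, W is A or T and Y is C or T. It was found in 1 of the 7, in Ptx3, as GGGGAACTCC at bases -1 to 9, with an overlapping match on the reverse strand at 1 to 10, against 4.51% of promoters. NF-κB sites that depart from these letters or lie outside the windows were not searched. The AP-1 type letters TGANTCA, searched with any base at N, were found in Cp only, as TGATTCA, against 7.81% of promoters. The match lay before the upstream start of Cp, at -177 to -171. A TATA match, TATAAA, was also found in Cp only, at -25 to -20 before its downstream start with an overlapping match on the reverse strand, against 13.6% of promoters. The STAT letters TTCNNNGAA were in none of the 7 windows and in 8.3% of promoters. A match is a run of letters and does not show that a factor was bound. Hp and Orm1 were not matched.

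**Figure D1:**
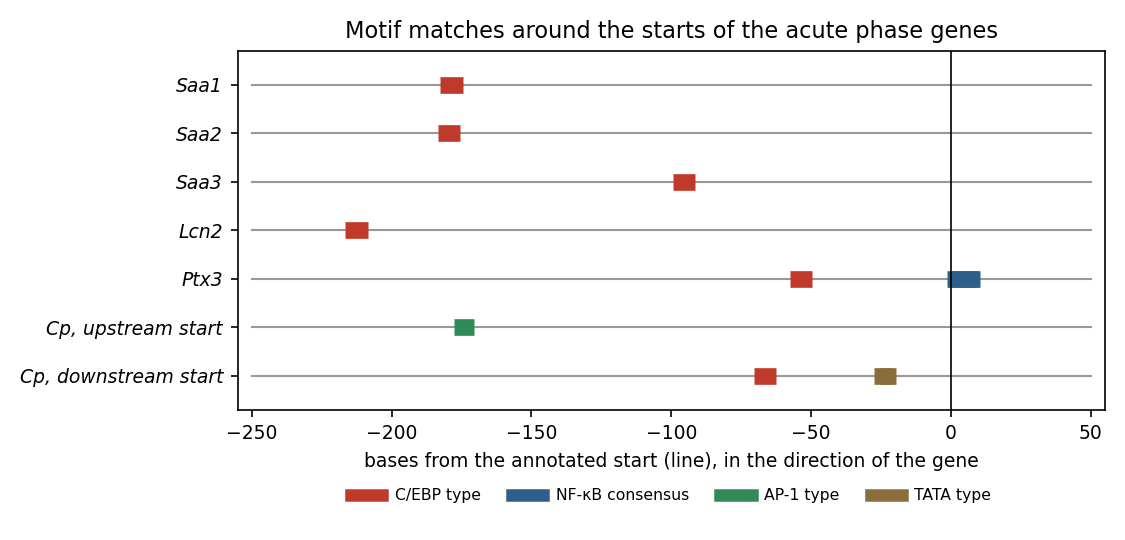
Positions of motif matches, on either strand, around the annotated starts of the 6 acute phase protein genes with a RefSeq promoter entry. The horizontal axis gives bases from the start, each grey line is 1 promoter from -250 to 50, and coloured blocks are matches drawn to scale. A C/EBP type match is present in each of the 6 genes, from -216 in Lcn2 to -50 in Ptx3, and the NF-κB consensus is present at the start of Ptx3.

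Saa3 encodes the serum amyloid A that is known to be made outside the liver, in macrophages and fat among other tissues. It lies at chr7:46711998-46715700 on the minus strand. Its abundance was 769, 705, 655 and 755 CPM in IL-1β replicates 1 to 4, from 8530 to 11027 counts per sample. In vehicle replicates 1 to 4 it was 1.04, 1.33, 0.571 and 0.723 CPM, from 8 to 23 counts. The lowest treated sample was replicate 3, the vehicle samples were near the detection limit, and the groups did not overlap. The means were 721 ± 51.8 CPM with IL-1β against 0.915 ± 0.338 CPM in vehicle (SD, n = 4). The log2 fold change was 9.57 (SE 0.0865, too small for so few vehicle counts), which placed Saa3 at rank 1 of the 14404 genes. In level per kilobase of gene length it moved from rank 13641 among the genes tested in vehicle to rank 122 with IL-1β.

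Saa1 and Saa2 encode the serum amyloid A proteins best known from plasma. Saa1 lies at chr7:46740497-46742980 on the minus strand and Saa2 at chr7:46751790-46754313 on the plus strand, so that they are transcribed away from each other from starts 8.81 kb apart. Saa1 had 76, 98, 108 and 91 counts in IL-1β replicates 1 to 4 and 1, 1, 0 and 0 counts in vehicle replicates 1 to 4. Saa2 had 97, 109, 138 and 124 counts with IL-1β and 0, 1, 0 and 2 counts with vehicle. For both genes every treated sample lay above every vehicle sample, and no vehicle sample exceeded the detection limit of 3 counts. The level with IL-1β was 6.41 to 7.07 CPM for Saa1, with a mean of 6.70 ± 0.316 (SD, n = 4), and 7.86 to 8.79 CPM for Saa2, with a mean of 8.40 ± 0.448 (SD, n = 4).

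The ratio of IL-1β to vehicle counts, pooled over samples and corrected for their totals, was 213 for Saa1 with a 95% exact interval of 58.6 to 1766. For Saa2 it was 178, with an interval of 60.6 to 868. These intervals cover counting error only, and their width comes from 2 vehicle counts of Saa1 and 3 of Saa2 in all. The fitted log2 fold changes were 7.40 (SE 0.326) and 7.24 (SE 0.300), and they depend on the prior count and on single vehicle samples. Leaving out 1 sample at a time moved them between 7.08 and 7.80 for Saa1 and between 6.84 and 8.18 for Saa2, the highest without vehicle replicate 4, which held 2 of its 3 vehicle counts. Both SEs are too small for so few vehicle counts, and the exact intervals are wider. Of the 50-base stretches in the transcripts of Saa1, 31.5% also occurred in other genes, chiefly Saa2, and 30.0% of those of Saa2 occurred in Saa1, so the split of reads between this pair is uncertain. For Saa3 the share was 4.15%.

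A further member of the cluster, Saa4, which encodes a serum amyloid A that is a constant component of plasma lipoproteins, lies between Saa3 and Saa1. It had 4, 4, 5 and 5 counts with IL-1β and 0, 0, 2 and 0 with vehicle, which was too few for it to be tested. The ratio of its pooled counts was 10.3, with a 95% exact interval of 2.46 to 91.4. The starts of Saa4, Saa1 and Saa2 lay 16.9, 27.3 and 36.1 kb from that of Saa3. No other tested gene within 100000 bases of the Saa genes was called. Their log2 fold changes lay between -0.19 and 0.45, the highest being that of Ldha, which encodes a subunit of lactate dehydrogenase. Hps5 and Gtf2h1, on the side of Saa2, had log2 fold changes of -0.08 and 0.15, and Saal1, next to Saa3, had 0.26.

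Lcn2 encodes lipocalin 2, which binds bacterial siderophores and is also stored in neutrophil granules. It lies at chr2:32384633-32388252 on the minus strand. Its abundance was 7738, 8047, 8285 and 8254 CPM in IL-1β replicates 1 to 4 and 272, 285, 296 and 287 CPM in vehicle replicates 1 to 4. The treated samples lay close together and far above the vehicle samples, which already held Lcn2 at a high level. The means were 8081 ± 252 CPM and 285 ± 9.82 CPM (SD, n = 4), a log2 fold change of 4.83 (SE 0.0312), or 28.4-fold. Lcn2 took 0.809% of all counts with IL-1β and 0.0285% with vehicle. In level per kilobase it ranked 8 of the genes tested with IL-1β and 311 with vehicle.

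Of 8 tested genes within 100000 bases of Lcn2, 2 were called higher, beside 2.86% of all genes tested. Ptges2, which encodes a prostaglandin E synthase, starts 7644 bases from Lcn2. It had 40.5, 40.8, 39.3 and 43.5 CPM in IL-1β replicates 1 to 4 and 17.5, 15.8, 17.6 and 19.5 CPM in vehicle replicates 1 to 4, and the groups did not overlap. Its log2 fold change was 1.22 (SE 0.0600, adjusted p = 3.45e-16, edgeR's quasi-likelihood test with Benjamini-Hochberg adjustment). The other, 1110008P14Rik, lies 2695 bases from Lcn2 on its other side, and was higher by 1.17 on the log2 scale (SE 0.0535, adjusted p = 6.10e-17 by the same test). Its means were 52.9 ± 2.72 CPM with IL-1β against 23.5 ± 1.58 CPM in vehicle (SD, n = 4). Around all members, 28 tested genes lay within that distance, of which 2 were called higher, both beside Lcn2, and 1 lower, Col27a1, a fibrillar collagen gene beside Orm1 with a log2 fold change of -3.16. Over all genes tested these shares were 2.86% and 2.35%.

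Hp encodes haptoglobin, which binds free hemoglobin. It lies at chr8:109575128-109579172 on the minus strand. Its abundance was 231, 227, 247 and 248 CPM in IL-1β replicates 1 to 4 and 1.62, 2.31, 1.28 and 1.64 CPM in vehicle replicates 1 to 4. All vehicle samples were above the detection limit, with 18 to 40 counts, and all lay far below the treated samples. The means were 238 ± 10.6 CPM and 1.71 ± 0.431 CPM (SD, n = 4), a log2 fold change of 7.09 (SE 0.0705), or 137-fold. This SE is too small for so few vehicle counts. No transcript stretch of 50 bases of Hp, Lcn2 or Ptx3 was shared with another gene.

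Orm1 encodes an orosomucoid, or alpha-1-acid glycoprotein, a plasma protein that binds drugs and lipids. It lies at chr4:63344560-63348163 on the plus strand. It had 2, 2, 6 and 6 counts in IL-1β replicates 1 to 4 and 3, 0, 0 and 3 counts in vehicle replicates 1 to 4. The groups overlapped, and Orm1 was close to the detection limit in every sample. The ratio of the pooled counts was 3.05, with a 95% exact interval of 1.13 to 9.51 that covers counting error only. Of its 50-base stretches, 20.4% were shared with Orm2 and Orm3, so counts of the 3 genes may be split. Orm2 had a difference of 0.19 on the log2 scale (SE 0.316, adjusted p = 0.676 by edgeR's quasi-likelihood test with Benjamini-Hochberg adjustment), from 12 to 18 counts per sample with IL-1β and 6 to 22 with vehicle.

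Cp encodes ceruloplasmin, a copper-containing ferroxidase. It lies at chr3:19957054-20009145 on the plus strand. Its abundance was 288, 287, 276 and 269 CPM in IL-1β replicates 1 to 4 and 108, 110, 109 and 115 CPM in vehicle replicates 1 to 4. The groups did not overlap, and replicate 4 was the lowest of the treated and the highest of the vehicle samples. The means were 280.0 ± 9.25 CPM and 111 ± 3.00 CPM (SD, n = 4), a log2 fold change of 1.34 (SE 0.0329), or 2.52-fold. Of its exon bases, 1.13% overlap the antisense gene Hps3, and reads from that stretch could not be assigned to either gene if strand was not used in counting.

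Ptx3 encodes the long pentraxin 3, a soluble pattern recognition molecule that also binds components of the extracellular matrix. It lies at chr3:66219910-66225805 on the plus strand. Its abundance was 1104, 1014, 1018 and 1060 CPM in IL-1β replicates 1 to 4 and 381, 369, 364 and 370 CPM in vehicle replicates 1 to 4. Replicate 1 was the highest sample in both groups, and the groups did not overlap. The means were 1049 ± 42.1 CPM and 371 ± 7.08 CPM (SD, n = 4), a log2 fold change of 1.50 (SE 0.0322), or 2.83-fold.

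**Figure D2:**
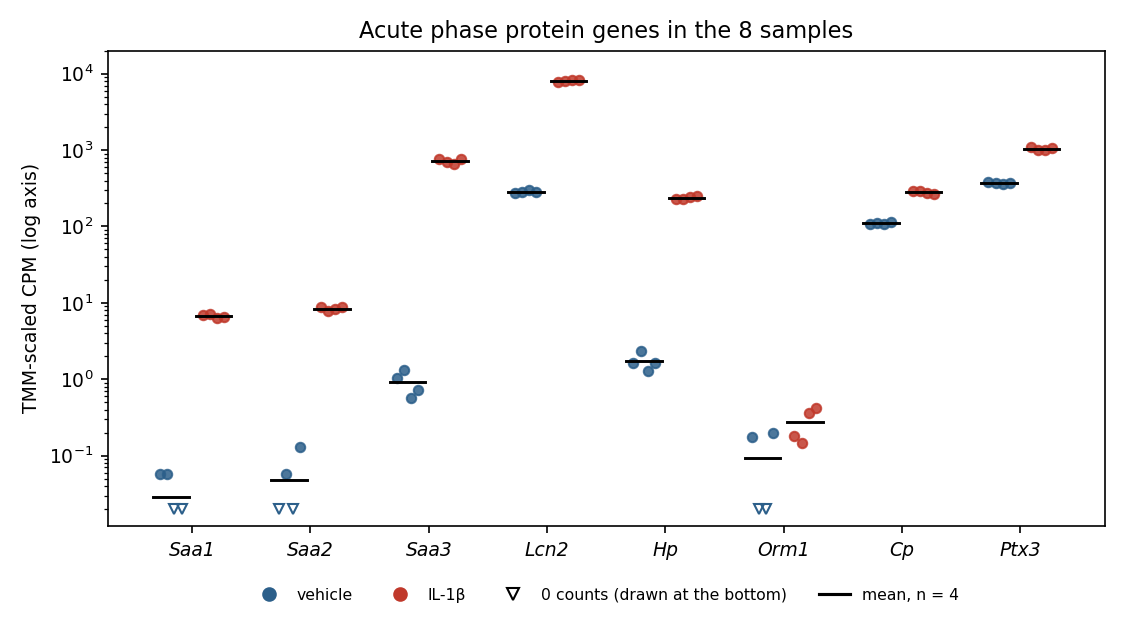
TMM-scaled CPM, on a log axis, of the 8 acute phase protein genes in each of the 4 vehicle (blue) and 4 IL-1β-treated (red) samples. Points are samples, black lines are group means, and open triangles at the bottom are samples with 0 counts. The groups are apart for every gene except Orm1, and the vehicle samples range from 0 counts of Saa1 and Saa2 to 364 to 381 CPM of Ptx3.

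All 7 members that were tested met the rule for genes called higher, beside 2.86% of all genes tested. Every IL-1β-treated sample lay above every vehicle sample for 7 of the 8 members, beside 18.7% of all genes tested. Nothing was read from these counts, since the genes were chosen on this comparison.

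In level per kilobase of gene length, the order in vehicle samples was Ptx3 (138 CPM per kb), Lcn2 (109), Cp (11.6), Hp (1.07), Saa3 (0.351), Orm1 (0.119), Saa2 (0.0188) and Saa1 (0.0116). The samples of Saa3 and Orm1, of Orm1 and Saa2, and of Saa2 and Saa1 overlapped in this order. With IL-1β the order was Lcn2 (3081 CPM per kb), Ptx3 (391), Saa3 (277), Hp (148), Cp (29.3), Saa2 (3.34), Saa1 (2.70) and Orm1 (0.357), and no neighbours in it overlapped. Per kilobase of the longest coding transcript instead, Saa3 stood above Ptx3 with IL-1β, and in vehicle Lcn2 stood above Ptx3.

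Together the 8 genes held 764 to 775 CPM in vehicle samples, with a mean of 770 ± 4.42 (SD, n = 4), or 0.0770% of counts. In IL-1β-treated samples they held 10146 to 10601 CPM, with a mean of 10384 ± 204 (SD, n = 4), or 1.04% of counts. Lcn2 made up 37.0% of this sum in vehicle and 77.8% with IL-1β. Ptx3 made up 48.2% in vehicle and 10.1% with IL-1β. The spread between treated samples was lowest for Lcn2, with a coefficient of variation of 3.12%, and reached 7.18% for Saa3 among the 7 genes that were tested.

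**Figure D3:**
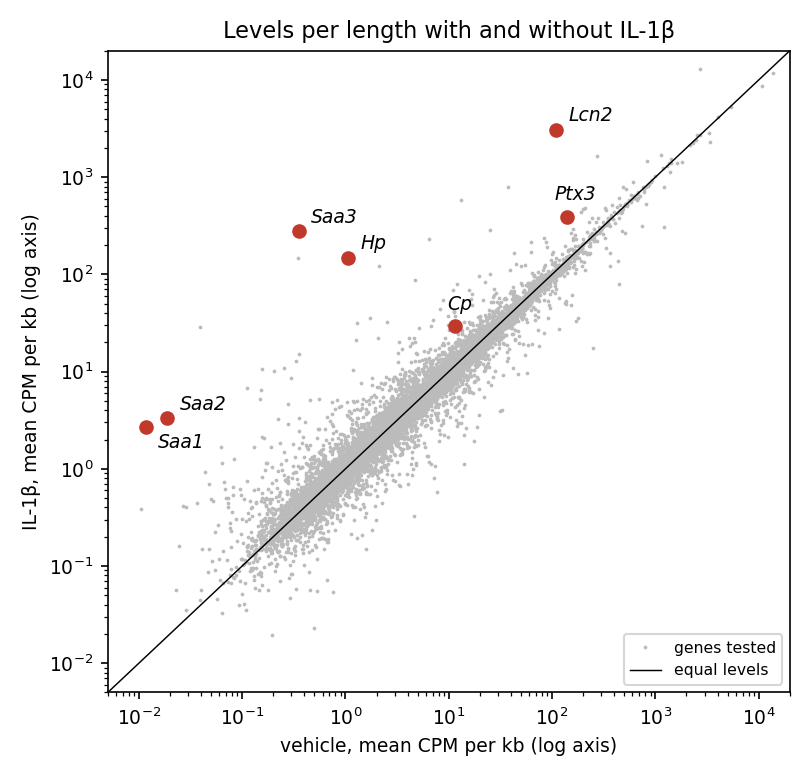
Mean level with IL-1β against mean level with vehicle (n = 4 each), in CPM per kb of gene length on log axes, for the 14404 genes tested (grey) and the 7 acute phase protein genes among them (red). The diagonal marks equal levels. Lcn2 and Ptx3 start at 109 and 138 CPM per kb in vehicle, Saa1 and Saa2 at under 0.02, and all 7 lie above the diagonal.

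For each tested member, the gene with the most similar pattern was taken as the one with the smallest root-mean-square difference over the 8 samples in log2 CPM relative to its vehicle mean. For Lcn2 it was Lbp, which encodes lipopolysaccharide-binding protein, with a difference of 0.175. For Cp it was Il6st, which encodes the shared receptor subunit gp130 of IL-6 type cytokines, with a difference of 0.0437, and for Ptx3 it was Esd, which encodes an esterase, with 0.0391.

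The gene nearest to Saa3 was Cxcl5, a neutrophil-attracting chemokine gene, with a difference of 0.608 on the log2 scale. Saa2 was nearest to Il13ra2 (0.909), and Saa1 and Hp were both nearest to Steap4, a metalloreductase gene (0.939 and 0.953). With a prior count of 2 in place of 0.5, the nearest gene became Nos2 for Saa1 (0.129), Vnn3 for Saa3 (0.834) and Cxcl5 for Hp (0.836), and it was the same gene for the other 4 members, at 0.222 for Saa2, 0.188 for Lcn2, 0.0433 for Cp and 0.0391 for Ptx3. How close the nearest gene lay thus depended on the prior count, most of all for Saa1 and Saa2. Which gene was nearest depended on it for Saa1, Saa3 and Hp.

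Other acute phase genes were examined from a list of 41, most known to rise in plasma or liver during inflammation, with Saa4 also in it. Of these, 14 were tested, 8 were called higher and none was called lower, and these 14 had a median log2 fold change of 2.05, beside 0.00 for all genes tested. The background was 2.86% of genes called higher. Hamp and Cfb, both among the 8, passed the filter only through the IL-1β-treated samples, in which they are high. They also raise the median of 2.05, which is therefore a description only. Among genes above 1 CPM in every sample, 5 genes of the list were called. Of the rest of the list, Ftl1, the ferritin light chain gene, was higher with a smaller fold (0.31). The 15 genes of the list with 0 counts in all 8 samples included Crp, Apcs and Fgb, the genes of C-reactive protein, serum amyloid P and the fibrinogen beta chain.

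Hamp, which encodes the iron-regulating hormone hepcidin, had 42, 60, 79 and 67 counts in IL-1β replicates 1 to 4 and 0, 2, 1 and 1 in vehicle replicates 1 to 4. All vehicle samples were below the detection limit, and the ratio of the pooled counts was 70.9, with a 95% exact interval of 27.3 to 262 for counting error. Of its 50-base stretches, 16.6% were shared with Hamp2. Lbp, whose product carries bacterial lipopolysaccharide to CD14, was at 152 ± 8.63 CPM in treated samples against 6.22 ± 0.551 CPM in vehicle (log2 fold change 4.61, adjusted p = 6.11e-30, edgeR's quasi-likelihood test with Benjamini-Hochberg adjustment as for all following values). Its partner Cd14 had 14.0 ± 0.428 and 3.85 ± 0.395 CPM (1.86, adjusted p = 9.30e-15).

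Of the complement genes, C3, the central component, was at 450 ± 4.13 CPM in treated samples against 24.3 ± 1.33 CPM in vehicle (4.21 on the log2 scale, adjusted p = 1.28e-33). Cfb, the factor B of the alternative pathway, was low in abundance, at 2.07 ± 0.521 and 0.189 ± 0.0940 CPM, and the ratio of its pooled counts was 11.3, with a 95% exact interval of 6.25 to 22.6. C4b, of the classical pathway, was not called (-0.05 on the log2 scale, adjusted p = 0.466). Among metal-binding proteins, Fth1, the ferritin heavy chain, was higher than any acute phase protein gene named here in CPM with IL-1β, at 11147 ± 606 CPM against 2359 ± 65.9 CPM (2.24, adjusted p = 9.86e-30). The metallothionein genes Mt1 and Mt2 had log2 fold changes of 2.59 and 3.40. The protease inhibitors Serpina3n (0.15) and A2m (-0.31) did not pass the test, with adjusted p-values of 0.552 and 0.0644.

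Genes whose products fall in plasma during the acute phase response, 12 in all, were mostly too low to be tested, and Ttr, Ahsg, Serpina6 and Serpina7 had 0 counts in all 8 samples. Of the 2 that were tested (median 0.20), Rbp4, which encodes the plasma retinol carrier, had a log2 fold change of -0.03 and Fetub 0.43, and neither was called, where the background was 2.35% called lower. Among 17 relatives of the members by family, 3 were tested (median 0.19) and none was called. The lists overlap, and the tested relatives Orm2 and Rbp4 were already counted in the lists above. Nptxr, a neuronal pentraxin receptor related to Ptx3, was higher by a small fold (0.27, adjusted p = 0.0309), where 20.4% of all genes tested were higher at any fold and 19.8% were lower.

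Receptors and binding partners of the members numbered 21, of which 10 were tested (median log2 fold change 0.46) and 2 were called higher, beside the background of 2.86%. Tlr2, a receptor at which serum amyloid A is reported to act, was at 58.7 ± 3.31 CPM in treated samples against 13.2 ± 0.465 CPM in vehicle (2.15 on the log2 scale, adjusted p = 8.60e-23). Tnfaip6, whose product TSG-6 binds Ptx3 and hyaluronan, had 7.42 ± 0.868 and 1.48 ± 0.182 CPM (2.31, adjusted p = 3.95e-13). A further 5 genes were higher by smaller folds, among them Tlr4 (0.49), Scarb1 (0.42), a lipoprotein receptor, and Lrp1 (0.29), an endocytic receptor. Lrp2, which encodes megalin, a receptor for Lcn2, was lower by a small fold (-0.79, adjusted p = 0.00167). Slc22a17, which encodes another receptor for Lcn2, had -0.28 and did not pass the test.

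Regulators of acute phase genes numbered 27, of which 22 were tested (median log2 fold change 0.64) and 9 were called higher, beside the background of 2.86%, with none called lower. Nfkbiz, an atypical IκB protein that acts with NF-κB on secondary response genes, had the highest log2 fold change of the tested genes of the list, 2.63 (SE 0.0359, adjusted p = 1.45e-29), with 275 ± 8.43 CPM against 44.3 ± 2.06 CPM. The C/EBP genes Cebpd (2.01), Cebpb (1.30) and Cebpa (1.06) were all called higher. Relb, of the noncanonical NF-κB pathway, had 1.13, while Nfkb1 (0.89), Nfkb2 (0.87) and Rela (0.42) were higher by smaller folds.

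In the IL-6 family, the receptor genes Il6ra (1.07) and Il6st (1.29) and the ligand Lif (1.12) were called higher, while Lifr was lower by a small fold (-0.49). Il6 itself had 17, 14, 17 and 26 counts with IL-1β and 0 counts in all 4 vehicle samples. It fell just short of the filter, which used CPM before TMM factors, and was not tested. With TMM factors it was at 1.01 CPM or more in every treated sample. Set against 3 counts per vehicle library, its level was at least 7.12-fold higher. Stat3 (-0.03, adjusted p = 0.474) and Il1r1 (-0.08, adjusted p = 0.263), the IL-1 receptor, did not pass the test, and Il1rap, the accessory chain of that receptor, had 1.15 and was called higher. Socs3, a feedback inhibitor of STAT3 signaling, was lower by a small fold (-0.20, adjusted p = 0.0022).

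**Figure D4:**
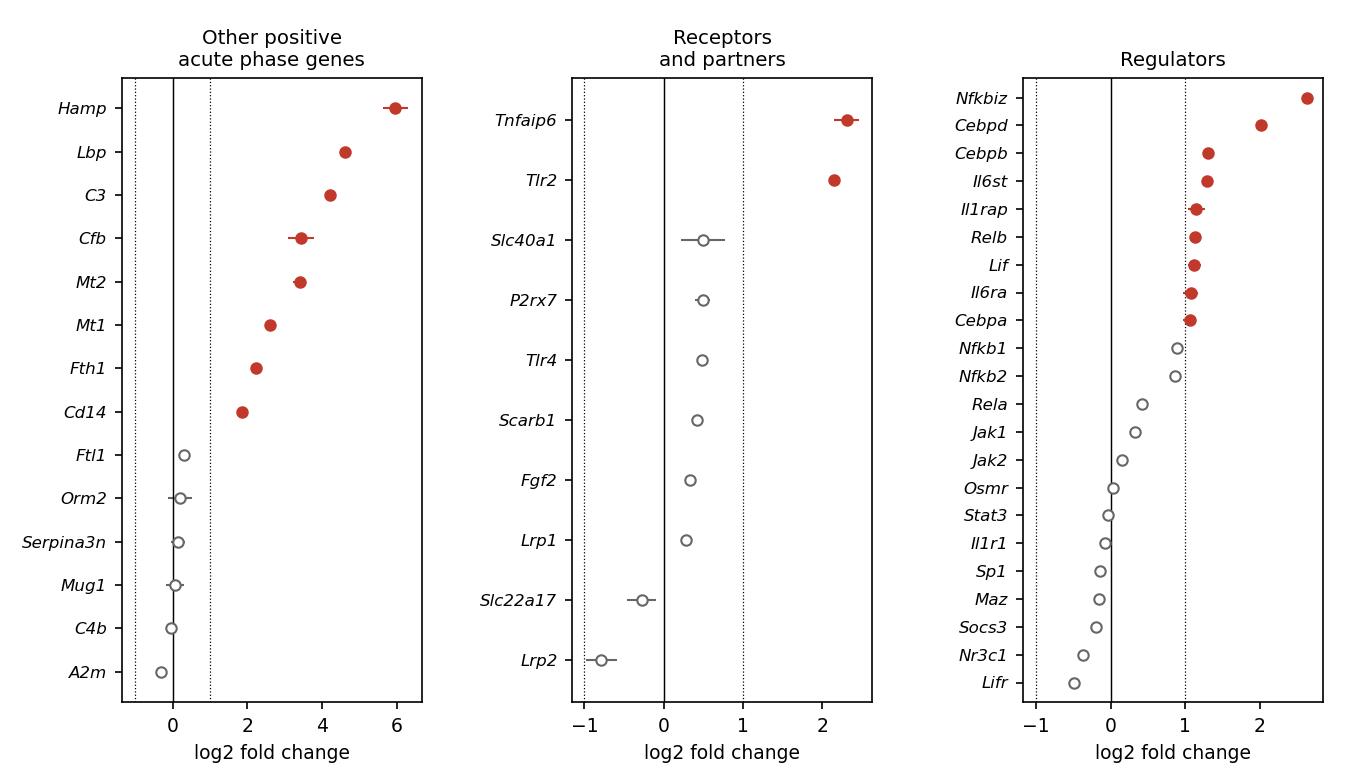
Log2 fold change, IL-1β against vehicle, of the tested genes in 3 lists: other positive acute phase genes (14), receptors and partners (10) and regulators (22). Points are fitted values with 1 SE, filled red points are genes called higher, dotted lines mark 1 and -1, and the 3 horizontal axes differ in range. The SEs of Hamp and Cfb are too small, since their vehicle counts were few. Hamp, Lbp and C3 lie beyond 4, while Nfkbiz (2.63), Tnfaip6 (2.31) and Tlr2 (2.15) lead the other lists with Cebpd (2.01).

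Markers of other cells that make acute phase proteins were measured beside these results. Of 10 hepatocyte markers, none was tested, 6 were at 0 in all samples, Ttr and Ahsg among them, and their sum was 0.216 to 0.594 CPM with IL-1β against 0.263 to 0.856 CPM in vehicle. Of 10 neutrophil markers, Ly6g, Mpo, Elane and Ltf were at 0 in all samples. The sum of the neutrophil markers was 1.35 to 1.62 CPM with IL-1β against 0 to 0.526 CPM in vehicle, carried by Camp, a cathelicidin gene. Camp had 71 counts in all with IL-1β and 9 with vehicle, and it passed the filter only through the treated samples. The ratio of its pooled counts was 9.02, with a 95% exact interval of 4.49 to 20.5. Lcn2 stood at 7738 to 8285 CPM in the same treated samples, and the part of neutrophils in its level was not tested.

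Of 10 macrophage markers, 2 were tested, Cd68 (0.67) and Lyz2 (-0.60), and their sum was 16.5 to 19.5 CPM with IL-1β against 11.8 to 14.0 CPM in vehicle. The part of these cells in the level of Saa3 was not tested. Fibroblast and synovial markers summed to 2016 to 2129 CPM with IL-1β against 868 to 918 CPM in vehicle. Nearly all of this was Prg4, the lubricin gene that superficial chondrocytes also express, which was called higher (1.23, adjusted p = 4.79e-24). The other tested markers of that list were higher by smaller folds, Pdgfra by 0.58 (adjusted p = 4.32e-11) and Cd34 by 0.76 (adjusted p = 1.06e-08), and the part of such cells in the acute phase protein levels was not tested. No adipocyte or endothelial marker, of 6 each, was abundant enough to be tested. Their sums stayed between 0.986 and 1.66 CPM for adipocyte markers and between 0.355 and 1.50 CPM for endothelial markers over all 8 samples.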

How the data were processed

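RNA-Seq was analysed for 4 IL-1β-treated and 4 vehicle samples, grouped by the treatment in their labels. The authors' reads went through cutadapt, STAR (mm10, GENCODE annotation) and featureCounts, which gave the counts. The deposited table holds whole-number counts, 1 row for each gene symbol, with totals that differ between samples. The STAR version is 2.4.2a in the submitters' processing notes and another in the methods. Whether the counts precede the batch correction with RUVseq named in the methods is not stated, nor whether strand was used in counting. The gene lengths deposited beside them (in bases, unit other) served for levels per kilobase. All 8 count columns were used.

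The members and gene lists were chosen with earlier results of these data known, and the window of 100000 bases around members was chosen after the data were seen. From the list of positive acute phase genes, 1 gene is not reported here and was left out of its counts. Named genes are the members, the called genes of the lists, list genes whose role the text needs and, for each tested member, the most similar gene. The neighbouring genes and the markers Camp, Cd68, Lyz2 and Prg4 were also named after their values were seen. Counts were scaled by TMM and tested with the quasi-likelihood test of edgeR 4.0.16 (limma 3.58.1 and R 4.3.3), on treatment alone. The test covered the 14404 genes whose CPM, before TMM factors, exceeded 1 in 4 or more samples. Called genes differed by more than 1 on the log2 scale, at a p-value under 0.05 after Benjamini-Hochberg adjustment. On simulated data for this comparison, 200 genes changed by a log2 fold change of 2 among 14404 gave 200 recovered by edgeR, with 1 false call, and 198 by DESeq2. Standard errors refer to log2 fold changes. Each was taken as the absolute log2 fold change over the square root of the F value of the test. Such an SE is too small where vehicle counts are few, as for Saa1, Saa2, Saa3, Hp, Hamp and Cfb. Ratios of low counts have 95% exact Clopper-Pearson intervals, and intervals and the limit of 3 counts refer to counting error alone, because no molecular identifiers mark independent molecules.

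Positions, overlaps and shared 50-base stretches came from GENCODE vM21 (GRCm38), in which 54000 of 54658 symbols matched 1 gene. Promoter sequences (250 bases before to 50 after each start) came from RefSeq (GRCm38.p6), with entries for 6 of 8 members. Upstream sequences were aligned with Biopython 1.88. The alternatives were DESeq2 1.42.0, other size factors, other filters on low counts, other thresholds, the replicate number as a block, each sample left out, other gene lengths and another prior count.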

Additional observations from a re-analysis of the deposited data

Results flagged for a closer look

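A single sample stood apart from the rest of its group for 2 of the 27 genes examined in this way, which were the members and the called genes of the lists. Mt1 was at 2000.3 CPM in IL-1β replicate 2, from 27737 counts, while the other 3 treated samples lay between 2065 and 2075 CPM. Tlr2 was at 63.6 CPM in IL-1β replicate 1, from 706 counts, while the other 3 lay between 56.7 and 57.3 CPM. In both cases the gap to the nearest sample was most of the range of the group by Dixon's ratio. Over the 54 groups of 4 samples compared, about 1 in 20, or 2.7, would be marked by chance. No sample of any of the 8 acute phase protein genes was marked.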

How the results depend on the processing

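The 102 log2 fold changes of the tested members over the alternative fits were all positive. The widest ranges were those of Saa1 and Saa2, whose vehicle samples held 0 to 2 counts. Leaving out 1 sample at a time gave 7.08 to 7.80 for Saa1 and 6.84 to 8.18 for Saa2. The same fits gave 9.42 to 9.81 for Saa3 and 6.99 to 7.28 for Hp. DESeq2 gave 7.74 for Saa1 and 7.48 for Saa2. The median of the tested members, 7.09 for 7 genes, became 5.95 for 8 genes with no filter on low counts and 3.16 for 4 genes with a CPM above 1 required in all 8 samples, through the genes that enter or leave. Over all genes, 412 were called higher and 339 lower. DESeq2 shared 750 of these 751 calls. With no filter the counts were 635 higher and 571 lower, and 2 relatives of the members were called. With a CPM above 1 in all samples 266 were called higher, 5 of them in the positive acute phase list. At a log2 fold change beyond 2, 122 were called higher and 61 lower, 2 of them regulators, both higher. On adjusted p alone, 2944 were higher and 2852 lower, with 1 relative, 7 receptors or partners and 14 regulators higher, and 1 receptor and 5 regulators lower. In the order by level per length, 1 pair changed place with IL-1β and 2 with vehicle under transcript lengths, and 1 pair changed with IL-1β with no length. Leaving out each sample gave 407 to 424 genes called higher and 330 to 347 lower. With a replicate block, 411 were called higher and 340 lower, with 745 calls shared. Deviations of samples with the same number correlated at -0.0689 to 0.0353, so the numbers were not taken as pairs. Depth limited Saa1, Saa2, Saa4 and Orm1, which are at or near 3 counts in vehicle samples.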
